A study of Homo sapiens with 2 samples.

Results

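The genes described were 10 genes of the actin and tubulin cytoskeleton: the actins ACTB and ACTG1, the actin-binding proteins PFN1, CFL1 and TMSB10, the alpha tubulins TUBA1A, TUBA1B and TUBA1C, and the beta tubulins TUBB and TUBB4B. They were chosen by name, and their members were the cytosines on same-strand exons of the GENCODE basic transcripts with these gene names that were covered by at least 10 reads. By this rule 2746 of 1584002 cytosines were kept for MCF10A, 2633 of 1271253 for MDA-MB-468, and 2301 of 812729 for both. Of the 6570 exonic cytosines of the 10 genes, 3078 were kept in at least 1 line. Of the 6570, 36 that were read at any deposited coverage also lie in another annotated gene on the same strand, at ACTB and ACTG1. None of the 36 was called, though some may have had fewer than 10 reads. Genes with a kept cytosine numbered 10312 and 9361 in all.

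What was measured was 5-methylcytosine (m5C) in poly(A)-selected RNA by RNA bisulfite sequencing, a treatment after which cytosine is read as thymine and m5C is still read as cytosine. MCF10A is an immortalised, non-tumour line of normal mammary epithelial cells, grown in DMEM-based medium, which the methods describe as DMEM/F12 with horse serum, EGF, hydrocortisone and insulin. MDA-MB-468 is a breast cancer line that was grown, by the methods, in RPMI with fetal bovine serum. Neither line was treated, each was represented by 1 library, and no replicates were made, so line, medium and library cannot be told apart and every test below compares the reads of 2 libraries, not the lines as conditions.

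The value at each cytosine is its methylation ratio, the unconverted reads as a percentage of all reads there. A cytosine was called an m5C site where a one-sided Fisher's exact test found more unconverted reads than the background of its library, 1.99% for MCF10A and 1.81% for MDA-MB-468, at an FDR of 0.05 over all kept cytosines. The 2 tables held 76098976 counts for MCF10A and 90960018 for MDA-MB-468, of which 60580227 and 42429746 were at kept cytosines, with a median coverage of 18 in each. At a coverage of 10 a call took at least 4 unconverted reads in either line, and at 100 it took 9 in MCF10A, 10 in MDA-MB-468. A ratio does not tell few cells with much m5C from many cells with little. Intervals are 95% Wilson intervals. They cover no more than counting error, and cytosines a few nucleotides apart share reads, so neighbouring values are not independent. A ratio pooled over cytosines counts a read once for each cytosine it spans. Pooled intervals, of genes, regions and blocks, can therefore be too narrow even for counting error. Of the epithelial markers, KRT5, KRT8, KRT17, KRT18, KRT19 and ITGB4 had kept cytosines in both lines. TP63 and KRT14 had none in either line, EPCAM and CDH1 had none in MCF10A, and LAMB3 had 1201 in MCF10A and none in MDA-MB-468. EGFR had 750 and 1843, and ESR1 and PGR had none in either line. COL1A1, a marker of other cells, had 267 in MDA-MB-468 and none in MCF10A, whereas COL1A2, PECAM1 and PTPRC had none in either; whether other cells were present was not tested.

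Actin monomers assemble into filaments that shape the cell cortex and drive movement. Profilin (PFN1) loads actin monomers onto growing filaments, cofilin (CFL1) severs filaments, and thymosin beta (TMSB10) holds monomers in reserve. Alpha and beta tubulin form the dimer from which microtubules are built, the tracks of transport and of the mitotic spindle. In RNA, m5C is laid down by enzymes of the NSUN family and by the tRNA methyltransferase DNMT2, and in mRNA by NSUN2 and NSUN6. The best known target letters are CNGGG for NSUN2 and CTCCA for NSUN6, with the methylated cytosine first.

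The cytosines on which the results turn lie in short sequences of the GRCh37 (hg19) genome, printed 5′ to 3′ on the strand of the gene. Capitals mark cytosines called m5C sites in at least 1 line. They were chosen because they show the called run ahead of the TUBB4B start codon (the last 3 letters), the part of the ACTB 3′UTR with the largest differences between the lines, a run in the CFL1 3′UTR, the start of the TUBB transcript, and a coding cytosine called at the same codon of both actins, in ACTG1 from the MCF10A reads and in ACTB from those of MDA-MB-468.
TUBB4B, 5′UTR, chr9:140135791-140135815, plus strand: ccCCgCCgCCgCCgCCgCCatcatg
ACTB, 3′UTR, chr7:5567089-5567117, minus strand: gatgCgttgttaCaggaagtCCCttgCCa
CFL1, 3′UTR, chr11:65622538-65622566, minus strand: gCagaccaagttCccCCCaggcacCcCag
TUBB, 5′UTR, chr6:30688152-30688180, plus strand: CgtttgCaCCtCgCtgCtccagcCtctgg
ACTG1, coding sequence, chr17:79478506-79478530, minus strand: ggtgcccatctaCgagggctacgcc
ACTB, coding sequence, chr7:5568204-5568228, minus strand: tgtgcccatctaCgaggggtatgcc

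In MCF10A, 72 of the 2746 kept cytosines of the 10 genes were m5C sites, or 2.62%, where 0.960% of all kept cytosines were called. In MDA-MB-468, 44 of 2633 were called, or 1.67%, where the share over all kept cytosines was 0.840%. The 10 genes were read more deeply than the whole table, with a median coverage of 84 and 51 against 18, and deeper cytosines can be called at lower ratios. With a ratio of at least 0.2 also required, the counts were 26 and 25. The share over all kept cytosines under that minimum is not given here, so these counts are not set against one. Called in at least 1 line were 102 cytosines, and 14 were called in both, which is 19.4% of the MCF10A sites and 31.8% of the MDA-MB-468 sites. Those 14 were 0.608% of the cytosines kept in both lines, near the 0.621% found over the whole table. Of the MCF10A sites, 13 were not covered by 10 reads in MDA-MB-468, so their absence there was not measured. The called sites of MCF10A had a median ratio of 16%, those of MDA-MB-468 one of 21.1%.

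Reads on the strand opposite to these genes were counted beside the calls of both lines. At every deposited coverage, from 5 reads up, the cytosines opposite to ACTB, PFN1, TMSB10 and TUBB were almost wholly unconverted in MCF10A, at 96.8% to 98.6% of their counts, and those opposite to ACTG1 at 92.2%. Those opposite to CFL1 were mostly converted over the whole gene, with 222 of 2903 counts unconverted (7.65%) at 172 cytosines. Within 30 nt of called CFL1 sites, however, all listed opposite-strand counts of MCF10A were unconverted, such as 67 of 67 near position 824. In MDA-MB-468, 15 cytosines opposite to ACTB had 85 of 85 counts unconverted, at a coverage of 5 to 8. The MDA-MB-468 share was 97.8% opposite to TMSB10, 82.6% opposite to TUBB, 5.37% opposite to ACTG1 and 3.28% opposite to CFL1. Of the MCF10A sites, 38 of 72 had a deposited cytosine on the opposite strand within 30 nt, 22 of them in ACTB and 15 in CFL1, and in MDA-MB-468 1 of 44 did. Of the kept cytosines of the 10 genes with one that near, 7.6% were m5C sites in MCF10A, and of the others 1.51%. In MDA-MB-468 the order was reversed, at 0.521% and 1.76%. By gene, the MCF10A share with one that near was 15.5% in ACTB, 14.2% in CFL1 and 1.59% in ACTG1. None of 54 such cytosines in PFN1, 41 in TMSB10 or 94 in TUBB was called. With all such cytosines left out, 34 and 43 m5C sites remain in the lines, the 14 of both, and 2 of 11 sites that differ between the libraries, those of TUBB4B. This comparison was chosen after the data were seen, and the part of such reads in the ratios was not tested.

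The calls were spread unevenly over the genes. ACTB had 25 (MCF10A) and 4 (MDA-MB-468), CFL1 had 16 and 0, and PFN1 had 4 and 0. TUBB had 9 and 18, TUBB4B 14 and 12, ACTG1 4 and 8, and TUBA1B 0 and 2. TMSB10, TUBA1A and TUBA1C had none in either line. Among protein-coding genes with at least 50 kept cytosines, 30.2% had, for MCF10A, and 26.2%, for MDA-MB-468, an m5C site, and of the 10 genes 6 and 5 had one. Coverage differs among these genes and bears on what can be called: TMSB10, with a median coverage of 682.5 and 229, was read more deeply than the other 9 genes in both lines, while TUBA1A had 27 and 8 kept cytosines at median coverages of 19 and 14.5.

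Pooled over all kept cytosines, the 10 genes had a methylation ratio of 1.77% (95% CI 1.74 to 1.8) for MCF10A, 1.72% (1.67 to 1.76) for MDA-MB-468, below the background of each library. ACTG1, at 1.38% (1.33 to 1.42) and 1.4% (1.31 to 1.5), and TMSB10, at 1.26% (1.2 to 1.33) and 0.974% (0.884 to 1.07), lay below the background in both lines. The beta tubulins lay above it in both, TUBB at 2.95% (2.8 to 3.11) and 2.77% (2.59 to 2.97), and TUBB4B at 3.1% (2.88 to 3.33) and 3.47% (3.17 to 3.8). For CFL1 the ratio was 2.71% (2.55 to 2.89) in MCF10A and 1.59% (1.47 to 1.71) in MDA-MB-468, on either side of the background. For PFN1 it was 1.74% (1.65 to 1.84) and 2.11% (1.95 to 2.28), the higher value in MDA-MB-468, and for TUBA1C 1.42% (1.19 to 1.68) and 1.54% (1.14 to 2.07). ACTB was higher in MCF10A, at 2.14% (2.05 to 2.23) against 1.56% (1.48 to 1.63). TUBA1B stood at 3.45% (2.98 to 3.99) and 7.31% (5.92 to 9), the highest pooled ratio of the 10 genes in each line. In MDA-MB-468 this value came from 62 cytosines at a median coverage of 16. With 1 library a line, no spread is available against which these gene ratios could be tested.

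**Figure D1:**
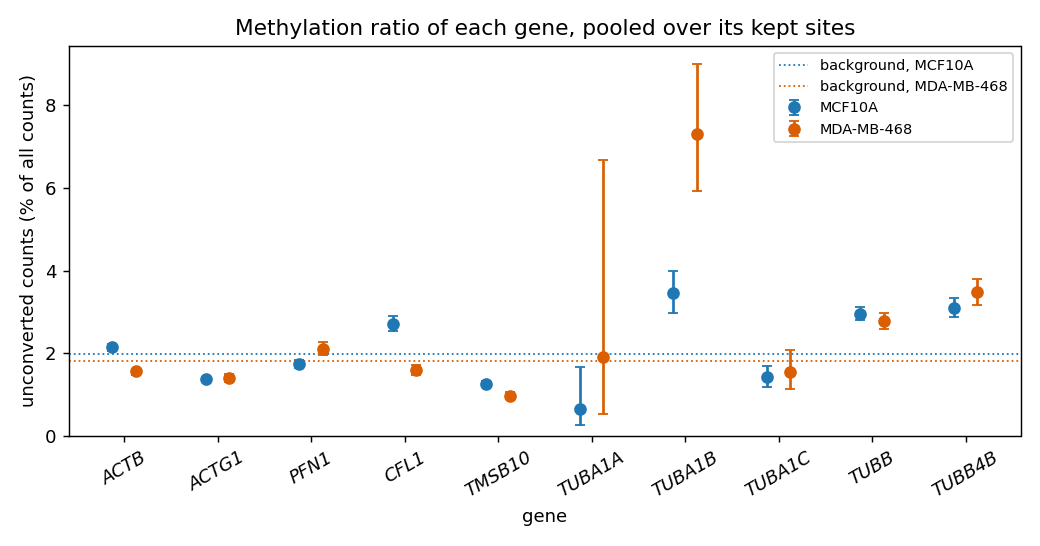
Methylation ratio of each gene (vertical axis, unconverted counts as a percentage of all counts) for MCF10A in blue and MDA-MB-468 in orange, pooled over the kept cytosines. Bars are 95% Wilson intervals for counting error only and can be too narrow because a read counts at each cytosine it spans. Dotted lines are the library backgrounds of 1.99% and 1.81%. TUBA1B in MDA-MB-468 is highest at 7.31%, and both beta tubulins lie above the lines.

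The region with most calls was not the same in both lines. In MCF10A, 40 of the 72 sites were in 3′UTRs, 19 in 5′UTRs and 13 in coding sequence, and in MDA-MB-468 the counts were 9, 32 and 3. As shares of the kept cytosines these were 6.07%, 4.02% and 0.805% in MCF10A, beside 0.837%, 2.24% and 0.615% over all genes. In MDA-MB-468 they were 1.29%, 6.46% and 0.208%, beside 0.739%, 1.95% and 0.551%. The 10 genes were read more deeply than the whole table, at a median coverage of 84 and 51 against 18. Of the 3′UTR sites of MCF10A, 22 lay in ACTB and 12 in CFL1. Over all regions, 22 ACTB and 15 CFL1 sites of MCF10A had a deposited cytosine on the opposite strand within 30 nt. Most 5′UTR sites lay in TUBB4B, with 12 in each line, and TUBB, with 4 and 18. Cytosines that are 5′UTR in any basic transcript were counted as 5′UTR. Read on the MANE Select transcript of each gene, its single representative isoform, the MDA-MB-468 counts became 26 in 5′UTRs and 7 in coding sequence. Of the 44 MDA-MB-468 sites, 42 lie in these transcripts.

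**Figure D2:**
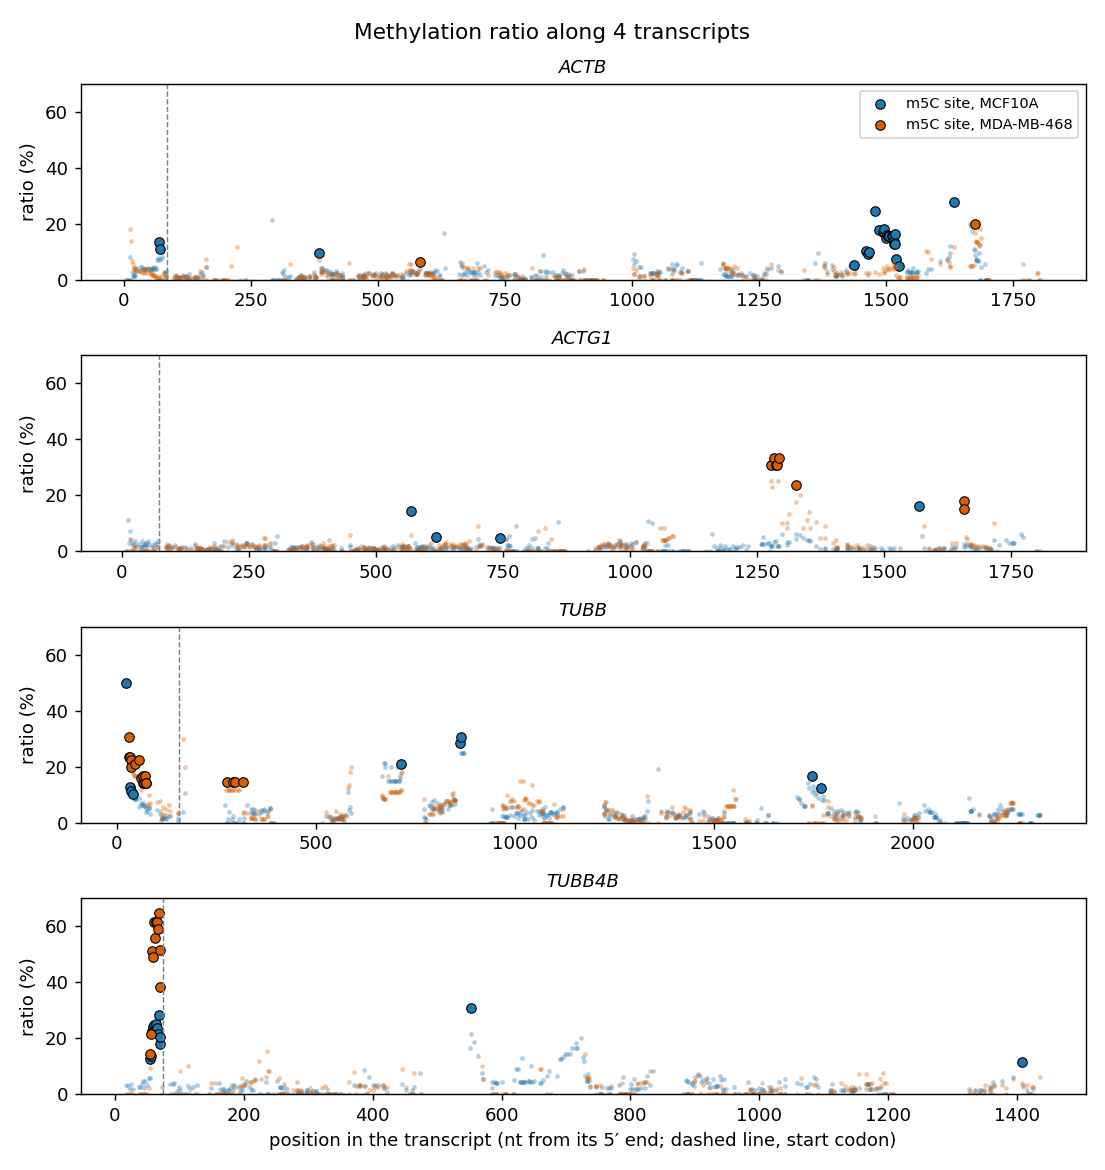
Methylation ratio (vertical axis, %) against position in the MANE Select transcript (horizontal axis, nt from its 5′ end) for ACTB, ACTG1, TUBB and TUBB4B, with each point a kept cytosine and each outlined point an m5C site. The called sites bunch in the 5′UTR of TUBB and TUBB4B and in the 3′UTR of ACTB, and the latter are MCF10A sites apart from 1 at position 1674.

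A run of sites called in both lines ended 4 nt before the start codon of TUBB4B, a widely expressed beta tubulin. There, transcript positions 55 to 71 hold 12 cytosines, of which the last 10 lie in a GCC repeat. All 12 were m5C sites in both lines. In MCF10A their ratios ran from 12.5% through a median of 22.9% to 28.4%, at a coverage of 74 to 97. In MDA-MB-468 they ran from 14.3% through a median of 53.6% to 64.9%, at a coverage of 34 to 44. All 12 were higher in MDA-MB-468, and pooled over the run the ratios were 21.4% (19 to 24) and 49.3% (44.9 to 53.7). Outside the run they were 2.24% (2.05 to 2.44) and 1.71% (1.5 to 1.94).

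The highest ratio in each line was at position 68, chr9:140135806 in the 5′UTR part of exon 1, with 21 unconverted reads of 74 (28.4%) in MCF10A, and in MDA-MB-468 24 of 37 (64.9%). In both lines the lowest ratio was at the 5′ end of the run, position 55, with 11 of 88 (12.5%) and 6 of 42 (14.3%), only 1.79 percentage points apart. Positions 65 and 67 differed between the libraries by a two-sided Fisher's exact test adjusted over all 812729 cytosines kept in both, with 21 of 89 against 27 of 44 reads (adjusted p = 0.0455) and 21 of 97 against 26 of 44 (adjusted p = 0.0395). The other 10 did not pass the exact test, at adjusted p = 0.0595 or above. The tables list no cytosine on the opposite strand of TUBB4B in either line. Unconverted reads were about as many in both lines over the middle of the run, 20 to 22 against 21 to 27 at positions 58 to 68, while coverage in MDA-MB-468 was lower.

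**Figure D3:**
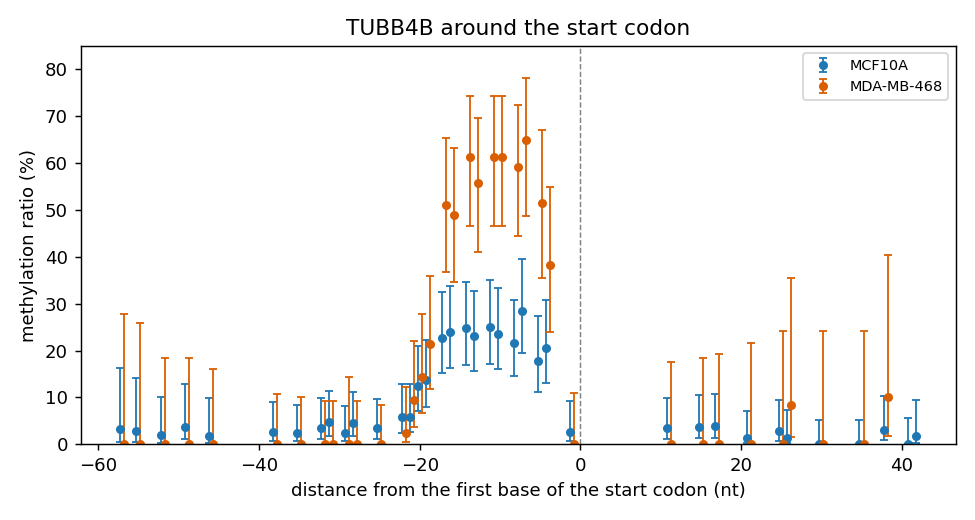
Methylation ratio (vertical axis, %) of the kept cytosines around the start codon of TUBB4B (horizontal axis, nt from its first base) with 95% Wilson intervals for counting error, MCF10A in blue and MDA-MB-468 in orange. The ratios rise over the GCC repeat to 28.4% and 64.9% and are lower on either side.

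Over the whole series, cytosines inside the letters GCCGCCGCC, searched on the strand of the RNA in the genome with every overlapping match counted, made up 0.292% (MCF10A) and 0.257% (MDA-MB-468) of the kept nuclear cytosines. Of these, 21.4% (990 of 4619) and 24.6% (804 of 3265) were m5C sites, beside 0.960% and 0.840% of all kept cytosines. The 10 genes had 10 kept cytosines in these letters in each line, all in the TUBB4B run, and all were called. Members at the first cytosine of CNGGG numbered 57 (MCF10A) and 67 (MDA-MB-468), and none was called, where 2.2% and 1.84% of all such cytosines were. Of the 13 and 9 in CTCCA, 1 was called, in MCF10A, and over all genes the share was 0.681% and 0.491%. The site in CTCCA was TUBB position 40, with 7 unconverted reads of 68. The GCC letters were searched after the GCC run had been seen, and a match is a description of sequence, not of an enzyme.

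TUBB, another beta tubulin of most cell types, also had called sites in its 5′UTR, over the 22 cytosines of positions 24 to 74. Of these, 4 were called from the MCF10A reads, 14 from those of MDA-MB-468, and the pooled ratios were 7.68% (6.55 to 8.98) and 17.1% (14.3 to 20.3). Unconverted reads at each cytosine numbered 4 to 9 in MCF10A at a coverage of 10 to 135, and 4 to 7 in MDA-MB-468 at a coverage of 13 to 42. None of the cytosines passed the test between the lines, and none on the opposite strand is listed there. Position 37, at chr6:30688165, was called in both lines with 7 of 61 reads (11.5%) and 4 of 20 (20%). Under the background of TUBB itself neither call held, and in MDA-MB-468 the call was also lost with a coverage minimum of 5 or a background over all deposited sites.

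The highest TUBB site at a coverage of at least 20 was position 57 in MDA-MB-468, with 6 of 27 reads (22.2%, adjusted p = 0.00132 by the one-sided Fisher's exact test), where MCF10A had 5 of 87 (5.75%). A second group of 4 MDA-MB-468 sites lay at positions 278 to 316, coding in the MANE transcript and 5′UTR in another basic transcript. Its 12 cytosines had 4 or 5 unconverted reads each at a coverage of 34, for 12.7% (9.85 to 16.3), while MCF10A had 0 to 3 at 77 to 80, for 0.844% (0.428 to 1.66). No cytosine of this group passed the test between the lines. In the 3′UTR, the highest MCF10A site was position 1747, with 6 of 36 reads (16.7%) against 1 of 17 (5.88%) in MDA-MB-468.

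In ACTB, the cytoplasmic beta actin, 21 of the 25 MCF10A sites fell within 89 nt of the 3′UTR, positions 1437 to 1525 in the last exon, exon 6. The 23 cytosines there had a pooled ratio of 9.77% (8.83 to 10.8) for MCF10A, beside 2.41% (2.13 to 2.72) for MDA-MB-468, where none was called. In the rest of the gene the ratios were 1.87% (1.79 to 1.96) and 1.45% (1.38 to 1.54). At each of these cytosines the unconverted reads numbered 11 to 21, with a median of 15, in MCF10A and 6 to 18, with a median of 11, in MDA-MB-468. Coverage was 65 to 422 in MCF10A and 155 to 1109 in MDA-MB-468. In the same span of the opposite strand, 11 cytosines had 127 of 129 counts unconverted in MCF10A, with 5 to 15 unconverted reads each, and 7 had 35 of 35 in MDA-MB-468, with 5 each. The part of these reads in the block was not tested. The lines overlapped in unconverted reads and differed mainly in converted reads, which fell lowest in MCF10A in the middle of the block.

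Of the 2301 cytosines kept in both lines, 11 differed between the libraries, or 0.478%, beside 0.0893% over the whole table. Lower in MDA-MB-468 were 9 (0.391%, beside 0.0691%), all in the ACTB 3′UTR, and higher were 2 (0.0869%, beside 0.0202%), the TUBB4B positions 65 and 67 above. The largest of the ACTB differences was at position 1478, chr7:5567113, with 16 of 65 reads (24.6%) in MCF10A, beside 15 of 553 (2.71%) in MDA-MB-468 (two-sided Fisher's exact test, adjusted p = 8.76e-06). Next were position 1496, with 16 of 88 (18.2%) and 9 of 374 (2.41%, adjusted p = 0.000762 by the exact test), and position 1486, with 13 of 73 (17.8%) and 11 of 502 (2.19%, adjusted p = 0.00113). All 9 lie within 30 nt of unconverted cytosines on the opposite strand. At these 3 cytosines the MCF10A ratio was higher, and again the unconverted reads were of like number while the coverage was not. By the same exact test, positions 1523 and 1527 differed at adjusted p = 0.00208 and 0.0244 although neither was an m5C site in either line.

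**Figure D4:**
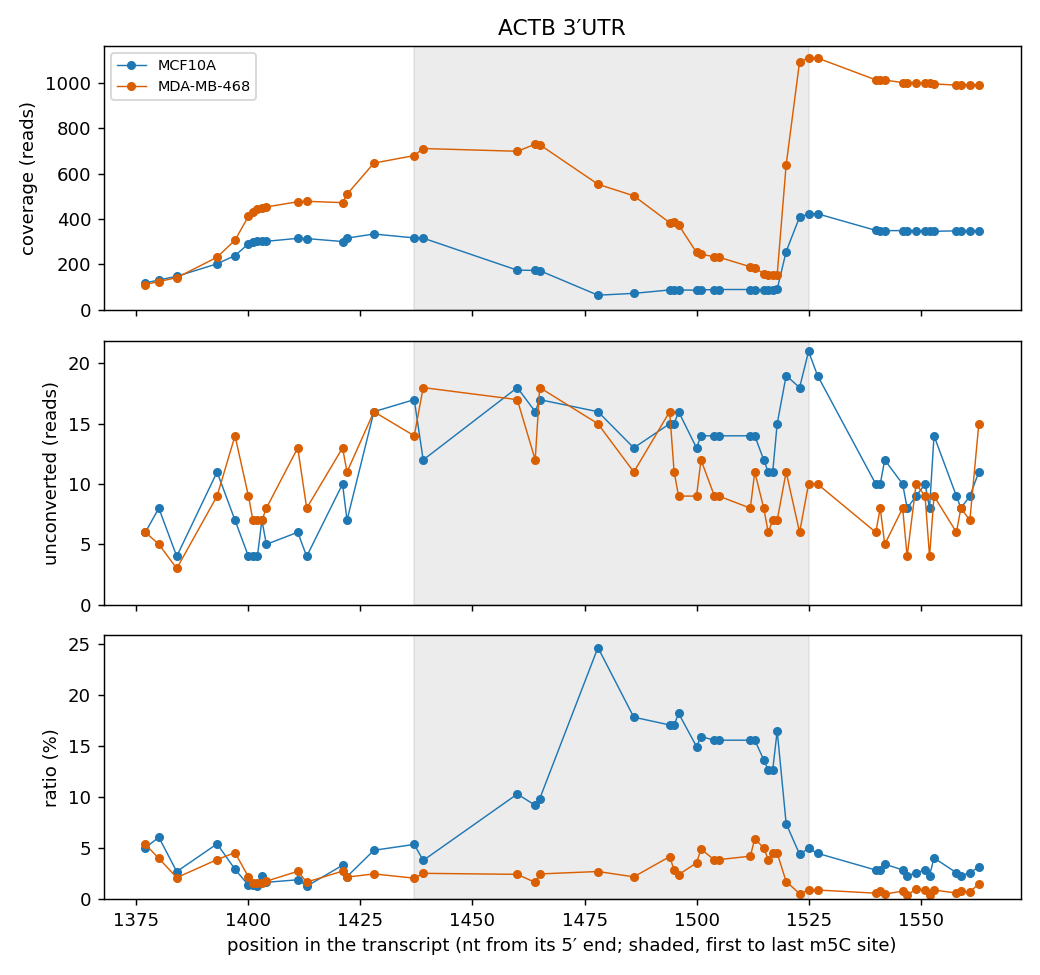
Coverage, unconverted reads and methylation ratio (vertical axes, top to bottom) of each kept cytosine along part of the ACTB 3′UTR (horizontal axis, nt from the 5′ end of the transcript), MCF10A in blue and MDA-MB-468 in orange. In the shaded block the unconverted reads of the lines overlap, at 11 to 21 and 6 to 18, and coverage in MCF10A falls to 65, where its ratio peaks at 24.6%.

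Other ACTB sites stood apart from that block. The highest in MCF10A was position 1633 of the 3′UTR, with 8 of 29 reads (27.6%), beside 4 of 34 (11.8%) in MDA-MB-468, and the highest in MDA-MB-468 was position 1674, with 4 of 20 (20%) beside 2 of 19 (10.5%). The call at position 1674 was lost with a coverage minimum of 5 or a background over all deposited sites. Within 30 nt of position 1674, 8 opposite-strand cytosines had 103 of 105 counts unconverted in MCF10A and 7 had 45 of 45 in MDA-MB-468. The 51 nt around position 1633, with every cytosine read as thymine, also occur elsewhere in the genome or in another transcript, so its reads may not all be from ACTB. Within 30 nt of it, 6 opposite-strand cytosines had 69 of 70 counts unconverted in MCF10A and 3 had 17 of 17 in MDA-MB-468. In the 5′UTR, 2 MCF10A sites were called, with ratios of 10.8% and 13.6%. The 2 other sites there were called in MDA-MB-468, with 8.2% and 9.68%. These MDA-MB-468 sites are not in the MANE Select transcript and are exonic only in another basic transcript.

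ACTG1, the cytoplasmic gamma actin, had a coding site with no second m5C site within 10 nt, named here after its values were seen. The third base of codon 166, transcript position 570 at chr17:79478518 in exon 4, had 113 unconverted reads of 789 (14.3%) in MCF10A, the most of any cytosine of the gene in that line. The 6 kept cytosines within 10 nt of it had a pooled ratio of 1.5% (1.17 to 1.91), and the highest of them was at 2.86%. In MDA-MB-468 it had 12 of 207 reads (5.8%) and was not called, and the difference between the libraries did not pass the test (two-sided Fisher's exact test, adjusted p = 0.419). No cytosine of the opposite strand is listed within 30 nt of it in either line. Coding sites of other genes also stood above their neighbours within 10 nt in MCF10A. ACTB position 385 had 15 of 160 reads (9.38%, neighbours 1.83%) and TUBB4B position 1408 had 7 of 61 (11.5%, neighbours 1.64%).

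The same codon position of ACTB, position 582 at chr7:5568216, lies in near-identical sequence, as the printed windows show, since the actin coding sequences are 91.2% identical. It had 14 of 370 reads (3.78%) in MCF10A, not called, and 13 of 206 (6.31%) in MDA-MB-468, called with an adjusted p of 0.0157 by the one-sided Fisher's exact test. In MDA-MB-468 its 4 neighbours within 10 nt had 2.51% (1.63 to 3.85). In both genes and both lines this cytosine had the highest ratio of the kept cytosines within 30 nt. Around the cytosine the converted 51-nt window of ACTB occurs once in the genome and transcripts searched, but reads that split between such close copies would be counted for either gene.

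**Figure D5:**
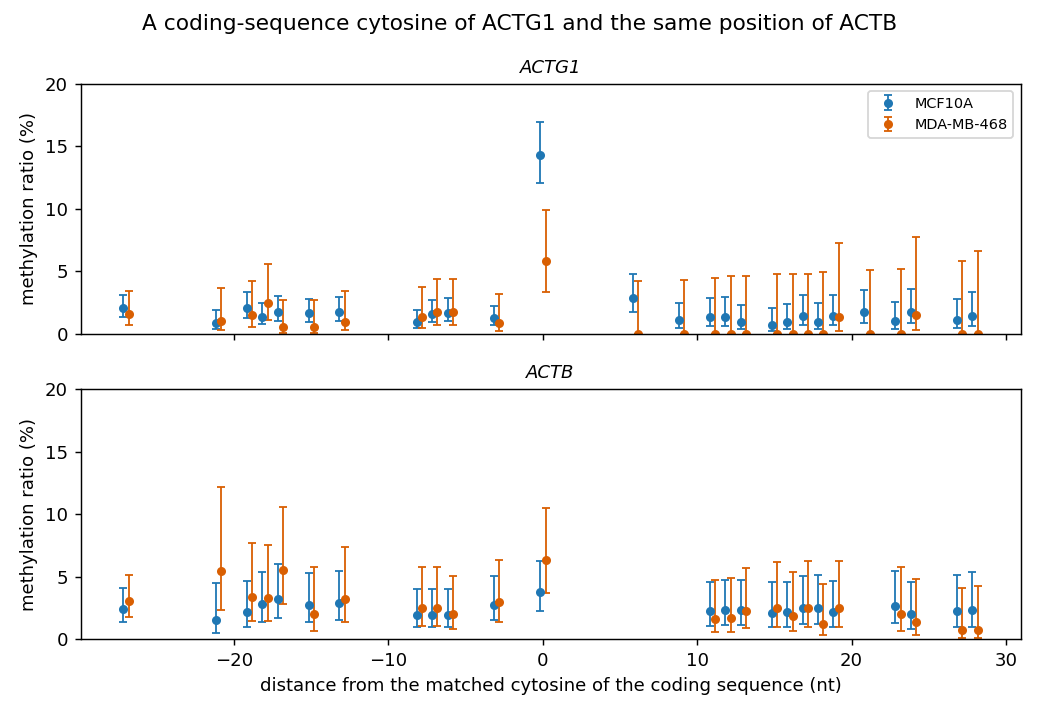
Methylation ratio (vertical axis, %) of the kept cytosines within 30 nt of the third base of codon 166 (horizontal axis, distance in nt) in ACTG1 and ACTB, with 95% Wilson intervals for counting error. The cytosine at 0 is at 14.3% and 5.8% in ACTG1 and 3.78% and 6.31% in ACTB, and its neighbours are lower.

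The other coding sites of ACTG1 in MCF10A, also with no second m5C site within 10 nt, stood out less. Position 745 had 43 of 931 reads (4.62%) and position 619 had 19 of 379 (5.01%). Their neighbours within 10 nt had pooled ratios of 1.42% and 1.29%, but the highest neighbour was at 4.42% and 3.89%, and in MDA-MB-468 position 745 had 2 of 201 (0.995%). The converted windows around positions 619 and 1569 also occur elsewhere, and that around position 570 does not. The highest ACTG1 site in MCF10A, by the rule used for the other genes, was position 1569 of the 3′UTR, with 5 of 31 reads (16.1%). It had no kept value in MDA-MB-468, and the call was lost with a coverage minimum of 5. Within 30 nt of position 1569, 16 opposite-strand cytosines had 80 of 88 counts unconverted in MCF10A. In MDA-MB-468 the highest site was position 1656, also in the 3′UTR, with 5 of 28 (17.9%) against 7 of 276 (2.54%). All 8 ACTG1 sites of MDA-MB-468 were in the 3′UTR, 5 of them at positions 1278 to 1293, where 26 of 88 counts were unconverted (29.5%, 21 to 39.8) at a coverage of 12 to 13. MCF10A had 9 of 384 (2.34%, 1.24 to 4.39) there.

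Of the actin-binding genes, CFL1 and PFN1 had m5C sites in MCF10A only, and no cytosine of CFL1, PFN1 or TMSB10 kept in both lines passed the test between the libraries. In CFL1, the block of 14 cytosines at positions 824 to 849 of the 3′UTR had 12.2% (10 to 14.8) in MCF10A, with 7 sites, and 4.04% (3.14 to 5.19) in MDA-MB-468, with none. Unconverted reads were 5 to 8 in MCF10A at a coverage of 49 to 56, and 2 to 8 in MDA-MB-468 at 97 to 106. On the opposite strand of this block 4 cytosines had 25 of 25 counts unconverted in MCF10A, with 5 to 8 reads each, and none is listed in MDA-MB-468. In the coding sequence, positions 397 to 404 had 19.3% (13.2 to 27.3) and 2.75% (1.18 to 6.27), and the highest site was position 398 with 7 of 26 reads (26.9%) against 1 of 33 (3.03%). Within 30 nt of it, 5 opposite-strand cytosines had 34 of 34 counts unconverted in MCF10A. The 5 sites at positions 915 to 936, at 33.9% (23.1 to 46.6), rested on 4 unconverted reads each and had no kept value in MDA-MB-468. On the opposite strand of that span, 2 cytosines had 11 of 11 counts unconverted in MCF10A and 3 had 23 of 23 in MDA-MB-468.

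In PFN1, the site with the highest ratio was position 423 in the coding sequence of exon 2, with 9 of 28 reads (32.1%) in MCF10A, beside 1 of 16 (6.25%) in MDA-MB-468. It lies in a predicted stem, as does ACTG1 position 1656, and the structure filter of the methods, which was not applied here, is meant to remove such sites. The other 3 PFN1 sites, positions 606 to 611 of the 3′UTR, had 5 unconverted reads each at a coverage of 21 to 26 and no kept value in MDA-MB-468. TMSB10 had up to 3238 reads at a cytosine and no call in 112 and 109 kept cytosines. Its highest ratios were 9.09% and 10%.

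The alpha tubulins were the least completely measured. Of the cytosines of the MANE transcripts, 64.9% in TUBA1A, 69.8% in TUBA1B and 41.4% in TUBA1C lie in converted 51-nt windows that also occur elsewhere, and the coding sequences of these genes are 96.3% to 97.3% identical to each other. Over the 10 genes, 73.3% of cytosines in windows that occur once were kept for MCF10A, 62.9% for MDA-MB-468, compared with 30.6% and 26% of those in repeated windows. Of the sites called, 68 of 72 and 40 of 44 were in windows that occur once. The 2 alpha-tubulin sites were in TUBA1B in MDA-MB-468, the higher at position 1100, chr12:49522092, in the coding sequence, with 5 of 29 reads (17.2%) beside 3 of 68 (4.41%) in MCF10A. Against the background of its own gene, the call at TUBA1B position 1100 did not hold, nor did that at TUBB position 1747.

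Most m5C sites came in groups. In MCF10A 56 of 72 had another m5C site within 10 nt, 52 were in groups of at least 3, and 16 had none that near. In MDA-MB-468 the counts were 37 of 44, 31 and 7. The RNA secondary structure predicted at 70 °C put 5.56% of the MCF10A sites and 9.09% of the MDA-MB-468 sites in a stem, beside 13.5% and 13.4% of all kept cytosines of the 10 genes. The unconverted reads were deposited as counts at each cytosine, so whether the same reads were unconverted at neighbouring sites was not analysed here.

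Over the 1840 member cytosines covered by at least 20 reads in both lines, the ratios of the lines had a Pearson's r of 0.537 and a Spearman's rho of 0.36 across cytosines, which share transcripts, sequence and reads. Without the TUBB4B 5′UTR, r was 0.303 over 1817 cytosines.

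Other genes of the cytoskeleton were counted for comparison. Of a list of 46 actin-related genes, 45 (MCF10A) and 41 (MDA-MB-468) had kept cytosines, and 18 (40%) and 15 (36.6%) of these had an m5C site, where 21.2% and 17.0% of all protein-coding genes with kept cytosines did. By cytosine, 0.849% and 0.962% of those kept in these genes were called, against 0.960% and 0.840% over the whole table. Those with the most were MYH9, a non-muscle myosin heavy chain, with 30, the actin cross-linker FLNA with 25 and the filament-elongation factor VASP with 24 in MCF10A. In MDA-MB-468 they were the myosin light chain MYL12B with 26, the tropomyosin TPM4 with 20, and FLNA and the cross-linker ACTN1 with 19 each. Of 23 microtubule-related genes, 3 of 21 (14.3%) and 3 of 20 (15%) with kept cytosines had a site, and 0.345% and 0.519% of their cytosines were called. In this list the tubulin-folding cofactor TBCA led in both lines, with 13 of 20 kept cytosines called in MCF10A (20.9% unconverted over the gene) and all 11 kept cytosines in MDA-MB-468 (62.1%). KIF5B, a kinesin heavy chain, followed with 9 and TUBG1, gamma tubulin, with 1 in MCF10A, and the folding cofactor TBCC with 8 and the dynactin subunit DCTN1 with 1 in MDA-MB-468. A difference between the libraries passed the test in TPM4 and ACTN1 and in no microtubule-related gene, where 0.892% of all protein-coding genes tested had one.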

How the data were processed

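RNA bisulfite libraries of MCF10A and MDA-MB-468 (1 each) were taken from the deposited tables, which give raw counts of reads, unconverted and converted, at every cytosine. Per the study's methods, poly(A) RNA was treated with bisulfite at 60 °C for 8 h, reads were trimmed with Trim Galore, aligned to hg19 and called with MeRanTK at a base quality of at least 30, with at most 10 duplicate reads. The submitters' processing notes name Trim Galore and Bismark; which aligner made each table is not settled by these sources, and no version is given in the sources used here. The tables start at a lower coverage and include introns, so the filters on coverage and exons were applied here.

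The 10 genes, the lists of related genes and the alternatives were chosen with earlier results of these data known. Cytosines with a coverage of at least 10 on same-strand exons of GENCODE 44 (lifted to GRCh37) basic transcripts, or on the mitochondrial chromosome, were kept. Each was tested against the summed counts of its library by a one-sided Fisher's exact test, and between the libraries by a two-sided one, with Benjamini-Hochberg adjustment over the whole table at 0.05 (scipy 1.17.1, numba 0.67.0, tested on simulated data). No structure filter was applied. RNA structure was predicted with RNAfold of ViennaRNA 2.7.2 (maximum expected accuracy with gamma 0.1, 70 °C, pairs within 150 nt). A site's window was the 51 nt around it with cytosine read as thymine, and windows were searched in the genome and transcripts. Named sites were, for each gene, the called site of highest ratio (coverage 20 or more) per line and in both lines, and the 5 largest called differences. Blocks are called sites of either line chained within 30 nt, at least 3 of them, and were delimited after the calls were seen. Alternatives changed the coverage minimum, the background, the test, the transcripts and the size of effect, and left out sites in stems, in repeated windows or, added after seeing the data, near cytosines read on the opposite strand.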

Additional observations from a re-analysis of the deposited data

Results flagged for a closer look

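Signal above the library background was also found outside the exons of these genes. The introns were used for no comparison above, whereas the reads of the opposite strand were. In the introns of ACTB, 12 of 90 cytosines (MCF10A) and 24 of 185 (MDA-MB-468) were above the background at an FDR of 0.05, with pooled ratios of 7.78% and 4.44%. On the strand opposite to the gene in MCF10A, all 22 covered cytosines were above it at ACTB (98.6% of 296 counts unconverted), as were all 3 at ACTG1 (97.2% of 36) and all 5 at TMSB10 (96.3% of 54). No cytosine opposite to ACTB or TMSB10 reached the coverage minimum in MDA-MB-468, where 1 opposite to ACTG1 had 0 of 10 counts unconverted, which allows a share of up to 30%. None of the covered intronic cytosines of ACTG1, PFN1 and TMSB10 in either line, or of CFL1 in MDA-MB-468, was above the background. The introns of the 3 alpha tubulins, TUBB and TUBB4B had no covered cytosine in either line, nor had those of CFL1 in MCF10A. Whether the opposite-strand reads came from RNA, and whether like reads are among the unconverted reads on the strand of the gene, was not tested.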

How the results depend on the processing

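No paired analysis was possible because each line has 1 library and the labels give no shared replicate number, and for the same reason no replicate could be left out. Under the alternatives run, apart from those given next, the m5C counts of 72, 44 and 14 (MCF10A, MDA-MB-468, both) stayed within 61 to 93, 35 to 46 and 12 to 16, and the 11 differential sites within 11 to 14. With a ratio of at least 0.2 required, the counts fell to 26, 25 and 9. With a difference of at least 0.1 required, 6 differential sites remained, and with adjustment over sites called in at least 1 line, which are fewer tests, there were 39. As the mean of site ratios, which weights thinly covered cytosines equally, the pooled ratios in MCF10A and MDA-MB-468 were 3.25% and 2.71% for whole genes, 3.3% and 4.32% for 5′UTRs, 2.73% and 2.22% for coding sequence, and 4.49% and 2.58% for 3′UTRs, all above the read-weighted values. In MCF10A the whole-gene ratio was 1.74% at a coverage minimum of 20 and 1.82% without sites in predicted stems, and the 3′UTR ratio 1.82% without stems and 1.61% over sites kept in both lines. Without sites that have a deposited cytosine on the opposite strand within 30 nt, an alternative chosen after seeing the data, 34 MCF10A sites and 2 differential sites remained, and 43 and 14 of the other counts. For the 18 named sites the alternatives changed only thresholds and adjustment, not the ratio, and of 101 such values 87 kept their call and 14 lost it, 5 of them by the ratio minimum. Leaving out stems removes the named sites PFN1 423 and ACTG1 1656, and leaving out repeated windows ACTB 1633 and ACTG1 1569, so these gave no value. Coverage limits the calls: at 10 reads a site must have 4 unconverted, a ratio of 40%.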
